A study of Mus musculus with 16 samples.

Results

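The genes described here are 10 factors that turn microRNA targeting into silencing and decay of the messenger RNA: Tnrc6a, Tnrc6b and Tnrc6c (the GW182 family), Cnot1, Cnot6 and Cnot7 (subunits of the CCR4-NOT deadenylase), Pan2 (the catalytic subunit of the PAN2-PAN3 deadenylase), Ddx6 and Dcp2 (decapping) and Xrn1 (5′ to 3′ decay). They were taken by gene symbol from the 55335 Ensembl genes of the count table, and each of the 10 had 1 entry and passed the filter on low counts, which left 19479 genes. The RNA came from mouse primary forebrain neurons that were cultured around birth and infected with lentivirus, and 16 libraries were made in 4 groups of 4. The first 3 groups carried a vector for a short hairpin RNA (labelled shRNA, called the unmutated hairpin here), for that hairpin with 2 point mutations (shRNA_2bp, the 2-mutation hairpin) or for that hairpin with 5 point mutations (shRNA_5bp, the 5-mutation hairpin). The remaining group carried an empty vector (Empty_Vector), so lentiviral infection was common to all groups. Mouse strain, exact age, the promoter of the hairpin and its intended target were not given in the sources used here. Nor is it stated that the 4 libraries of each group came from independent cultures, and the p-values therefore cover the spread among these samples, which may be technical.

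A microRNA guides an Argonaute protein to a partly complementary site, usually in the 3′ untranslated region. GW182 proteins (TNRC6A, TNRC6B and TNRC6C in mammals) bind Argonaute through tryptophan-containing motifs and bring in the CCR4-NOT and PAN2-PAN3 complexes, which shorten the poly(A) tail. DDX6 binds CNOT1 and connects deadenylation to translational repression and decapping, DCP2 removes the cap, and XRN1 degrades the uncapped RNA. A short hairpin RNA uses the same Argonaute proteins as the cell's own microRNAs. The study's title asks whether hairpins disturb neuronal microRNAs and the transcriptome independently of their target. In neurons these factors also act on messenger RNAs that are stored or translated in dendrites.

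The messenger RNAs of the GW182 family are themselves microRNA targets in principle, and matches in their 3′ untranslated regions are shown as a description of these transcripts. The longest annotated 3′ untranslated region was searched on the sense strand of the transcript for matches to bases 2 to 8 of 7 microRNA families that are abundant in brain (let-7, miR-9, miR-26, miR-29, miR-30, miR-128 and miR-181). No other family of brain microRNAs was searched, so a lack of matches below holds for these 7 only. Matches of 8 bases to miR-30 numbered 2 in Tnrc6a, 3 in Tnrc6b and 1 in Tnrc6c, and those to miR-26 numbered 1, 2 and 1. The mature sequences of these 2 families, the ones with such a match in all 3 genes, credited to RefSeq on GRCm38.p6, are given 5′ to 3′ with the seed in capitals:
miR-30a-5p: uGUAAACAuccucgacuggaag
miR-26a-5p: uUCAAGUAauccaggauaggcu
The matches of 8 bases in the Tnrc6 genes (the reverse complement of the seed followed by A, in capitals, with GENCODE vM21 positions on GRCm38, plus strand) were:
Tnrc6a, miR-26, chr7:123193101-123193108: atcagtttgaaTACTTGAAtca
Tnrc6b, miR-26, chr15:80929714-80929721: cactcttgaaaTACTTGAAtca
Tnrc6b, miR-26, chr15:80940340-80940347: ttgttttcttaTACTTGAAaac
Tnrc6c, miR-26, chr11:117761433-117761440: aaacatgcaaaTACTTGAAccc
Tnrc6a, miR-30, chr7:123193673-123193680: gtgaaccttctTGTTTACAgat
Tnrc6a, miR-30, chr7:123194472-123194479: tggcttttaacTGTTTACAata
Tnrc6b, miR-30, chr15:80932185-80932192: agagcccctctTGTTTACAaga
Tnrc6b, miR-30, chr15:80939002-80939009: gtgtgtgtgtgTGTTTACAtgt
Tnrc6b, miR-30, chr15:80939938-80939945: ctagggggctaTGTTTACAtag
Tnrc6c, miR-30, chr11:117762189-117762196: gggctcccaccTGTTTACAgac

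The regions searched were 2345 nucleotides long in Tnrc6a, 11609 in Tnrc6b and 2588 in Tnrc6c. A match of 8 bases to miR-30 was present in 11.7% of all annotated regions of a length similar to that of Tnrc6a, in 39.7% of those like Tnrc6b (68 regions) and in 12.4% of those like Tnrc6c. The match to miR-26 was present in 6.7%, 36.8% and 7.7% of the same sets of regions. Cnot6 held 1 such match to miR-30 and Pan2 held 1 to miR-29 (TGGTGCTA), in regions of 3690 and 588 nucleotides, and Dcp2 held 3 matches of 8 bases in 7240 nucleotides. Cnot1, Cnot7, Ddx6 and Xrn1 held none of 8 bases. A match is a run of letters and not a tested site, and microRNA levels were not analysed here.

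Total counts ran from 36143806 to 41152791 per library with the unmutated hairpin, 41618901 to 49824569 with the 2-mutation hairpin, 35521472 to 47401867 with the 5-mutation hairpin and 33795369 to 46187568 with the empty vector. Levels are given as CPM, counts-per-million after TMM scaling. Rtn4 is known from earlier results of these data to be lowest with the unmutated hairpin, so it is no independent check of the labels. It lay at 29.9 to 31.3 CPM with that hairpin and 122 to 130.3 CPM with 2 mutations. With 5 mutations it lay at 773 to 856 CPM and with the empty vector at 837 to 891 CPM. These last ranges overlapped, and the log2 fold change between them was −0.06 ± 0.04 (SE, edgeR adjusted p = 0.203). All 8 neuronal marker genes were detected, with summed levels of 4629 to 4892, 5234 to 5613, 4718 to 4983 and 5402 to 5694 CPM in the same order of groups, against at most 3.75 CPM in any library for 7 microglial markers. Of the neuronal markers, none rose and 6 fell with the unmutated hairpin. With the mutated hairpins the neuronal sum hides opposite moves. There 3 rose and 4 fell with 2 mutations, and 2 rose and 4 fell with 5 mutations. Over all genes tested, 40.3%, 63.3% and 54.9% were called in these comparisons with the empty vector. Slc17a7, the vesicular glutamate transporter of many cortical neurons, averaged 573 ± 31.4, 725 ± 25.8, 81.7 ± 5.81 and 612 ± 27.1 CPM, and Rbfox3, the neuronal nuclear antigen, averaged 106 ± 2.38, 119 ± 6.7, 31.4 ± 0.872 and 150.2 ± 2.63 CPM (SD, n = 4 each). Summed astrocyte markers lay at 687 to 1001, 707 to 885, 462 to 657 and 924 to 1130.0 CPM. Summed progenitor and cycling markers lay at 44.7 to 55, 75.2 to 115.7, 22.7 to 42 and 36.5 to 45.3 CPM, sums carried mostly by Nes and Sox2. With 5 mutations 3 of these 6 genes rose and 2 fell, and the proliferation gene Mki67 averaged 2.25 ± 0.847 CPM there, against 0.935 ± 0.175 CPM with the empty vector. Summed oligodendrocyte-lineage markers lay at 76.8 to 95.7, 39.5 to 45.1, 76.7 to 94.1 and 50.5 to 61.6 CPM. Summed endothelial and mesenchymal markers lay at 7.17 to 18, 8.36 to 27.1, 15 to 104.7 and 5.77 to 11.7 CPM, with replicate 3 of the 5-mutation hairpin standing apart at 104.7 CPM. The locus Gm26917, known to collect ribosomal RNA reads, took 7.37 to 8.02%, 10.9 to 11.5%, 7.99 to 9.16% and 5.85 to 6.34% of the counts. These measures moved with the groups, and their part in the results below was not tested. In bulk RNA, fewer cells of a type and less RNA per cell cannot be told apart.

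With each hairpin most of the 10 factors differed from the empty vector, in both directions. With the unmutated hairpin 2 rose, 5 fell and 3 did not pass the test (edgeR's quasi-likelihood test, adjusted p below 0.05 over all genes), where 40.3% of the 19479 genes tested were called, 20.8% higher and 19.5% lower. With the 2-mutation hairpin 4 rose, 5 fell and 1 did not pass, against 63.3% of all genes called, 32.5% higher and 30.8% lower. With the 5-mutation hairpin 4 rose, 3 fell and 3 did not pass, against 54.9% of all genes called, 28.4% higher and 26.5% lower. In absolute size the log2 fold changes of the 10 had medians of 0.26, 0.55 and 0.31 in these comparisons, against 0.23, 0.42 and 0.32 over all genes, and their signed medians were −0.13, −0.18 and 0.06, against 0.01, −0.01 and 0.03. The 3 comparisons share the 4 empty-vector libraries, so their values are set side by side and not counted as independent of each other. By the simpler count of genes whose 4 libraries all lay on 1 side of the empty vector, 2 were higher and 5 lower with the unmutated hairpin (38.4% of all genes, 19.7% higher and 18.7% lower), 4 higher and 5 lower with 2 mutations (60.1%, 31.5% and 28.6%), and 5 higher and 3 lower with 5 mutations (48.1%, 24.4% and 23.7%). The largest falls were in Dcp2 and Tnrc6b and the largest rise in Tnrc6a.

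**Figure D1:**
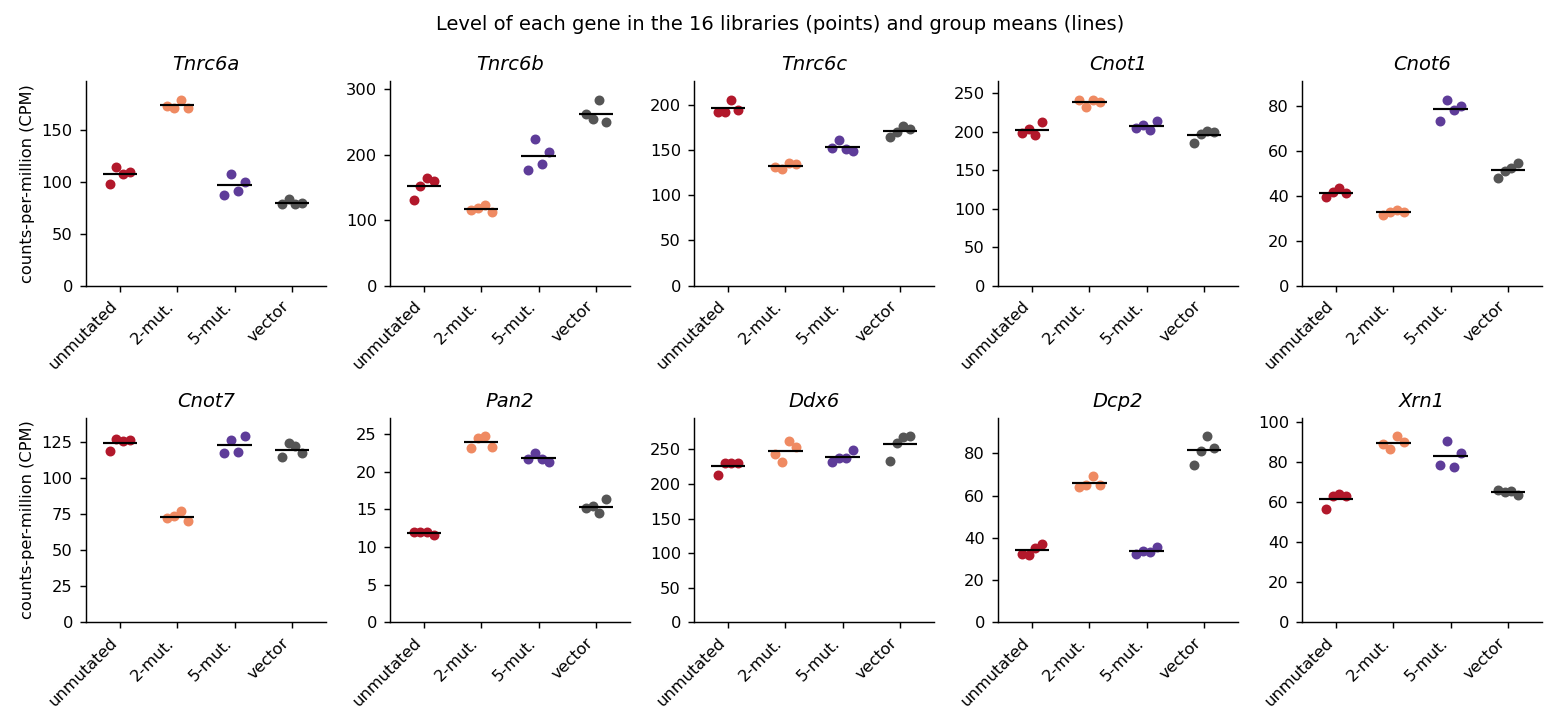
Level of each of the 10 genes in CPM (vertical axes, from 0) in the 4 libraries of each group (points) with the group mean (line). Dcp2 sits between 32.0 and 37.1 CPM with the unmutated hairpin and between 32.5 and 35.6 CPM with the 5-mutation hairpin, below every 2-mutation (64.0 to 69.3 CPM) and empty-vector library (74.3 to 88.0 CPM).

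**Figure D2:**
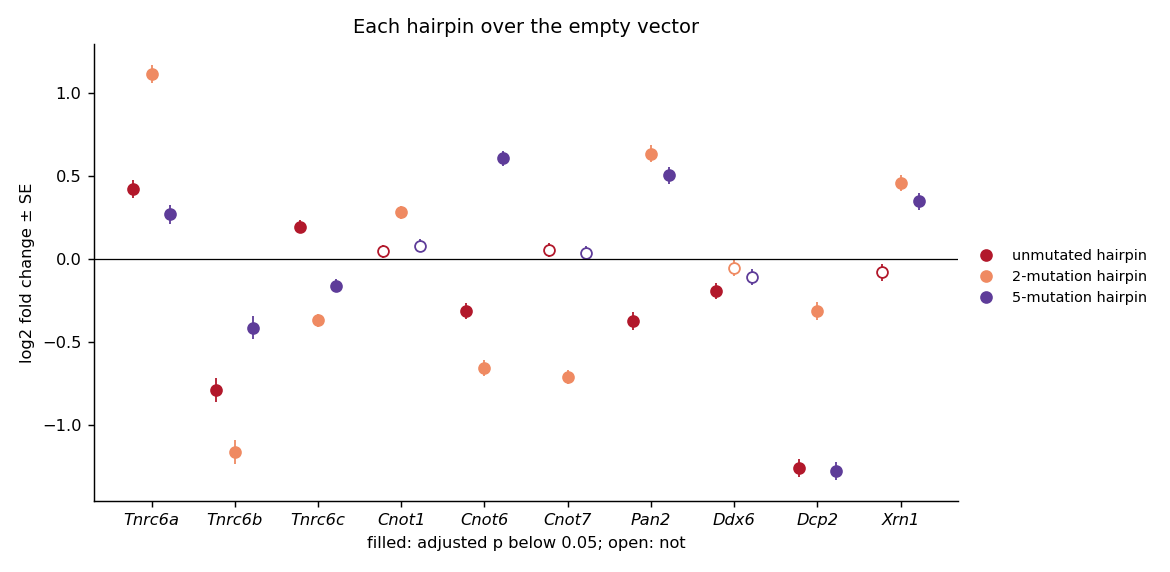
Log2 fold change over the empty vector with its SE for each gene and hairpin, filled where the edgeR adjusted p was below 0.05. Tnrc6a lies above 0 and Tnrc6b and Dcp2 below 0 with each hairpin, while Tnrc6c, Cnot6 and Pan2 lie on both sides.

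Among the GW182 scaffolds, Tnrc6a was higher and Tnrc6b lower with each hairpin than with the empty vector, and Tnrc6c went both ways. Tnrc6a (ENSMUSG00000052707.8; chromosome 7, 123123885 to 123195296, plus strand) was measured at 98.3, 115, 108 and 109.8 CPM with the unmutated hairpin, 174, 172, 179.6 and 172 CPM with 2 mutations, 87.8, 108, 91.9 and 100.1 CPM with 5 mutations. In empty-vector libraries Tnrc6a was at 78.6, 84, 78.7 and 80 CPM. Every hairpin library lay above every empty-vector library, the 2-mutation libraries furthest, and the unmutated and 5-mutation libraries overlapped each other. The log2 fold change over the empty vector was 0.42 ± 0.06 (SE; edgeR adjusted p = 2.22e-06) with the unmutated hairpin, 1.117 ± 0.06 (adjusted p = 9.24e-14) with 2 mutations and 0.27 ± 0.06 (adjusted p = 0.000242) with 5 mutations.

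Tnrc6b (ENSMUSG00000047888.10; chromosome 15, 80711313 to 80941085, plus strand) was measured at 131, 152.5, 164 and 160.4 CPM with the unmutated hairpin, 115, 118, 124 and 113 CPM with 2 mutations, 177, 223, 186 and 204 CPM with 5 mutations. In empty-vector libraries Tnrc6b was at 263, 255, 284 and 249.5 CPM. The 4 groups did not overlap at all, with the 2-mutation hairpin lowest and the empty vector highest. The log2 fold change was −0.79 ± 0.07 (SE; edgeR adjusted p = 3.86e-08) with the unmutated hairpin, −1.16 ± 0.07 (adjusted p = 3.37e-11) with 2 mutations and −0.41 ± 0.07 (adjusted p = 6.1e-05) with 5 mutations. Tnrc6c (ENSMUSG00000025571.13; chromosome 11, 117654289 to 117763439, plus strand) was measured at 192, 192, 205.5 and 194 CPM with the unmutated hairpin, 131, 128.5, 135.5 and 135 CPM with 2 mutations, 152, 161, 151 and 148.5 CPM with 5 mutations. In empty-vector libraries Tnrc6c was at 164, 169, 177 and 173 CPM. Its 4 groups did not overlap either, but here the unmutated hairpin was highest, above the empty vector, and the mutated hairpins were below it. The log2 fold change was 0.20 ± 0.04 (edgeR adjusted p = 0.000267) with the unmutated hairpin, −0.37 ± 0.04 (adjusted p = 2.53e-08) with 2 mutations and −0.16 ± 0.04 (adjusted p = 0.00143) with 5 mutations.

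Because the transcripts differ in length, levels were compared between genes as RPKM, here CPM per kilobase of annotated exon (12706 nucleotides for Tnrc6a, 23677 for Tnrc6b and 12843 for Tnrc6c). Summed over the 3 paralogs, the level was 30.1 ± 1.37 RPKM with the unmutated hairpin, 29.0 ± 0.642 with 2 mutations, 27.9 ± 1.86 with 5 mutations and 30.7 ± 0.844 with the empty vector (SD, n = 4 each). The sums of the unmutated and 5-mutation libraries overlapped those of the empty vector, and those of the 2-mutation libraries, 28.5 to 29.9 RPKM, lay just below its 30.0 to 31.9 RPKM. The make-up of the sum differed more. Tnrc6a supplied 26.9 to 29.7% of it with the unmutated hairpin, 47 to 47.6% with 2 mutations, 26.4 to 28.1% with 5 mutations and 19.4 to 21.6% with the empty vector. Tnrc6b supplied 19.6 to 22.2%, 16.6 to 17.5%, 28.5 to 31% and 34.8 to 37.5% in the same order. Tnrc6c was the most abundant paralog per length in the unmutated-hairpin, 5-mutation and empty-vector libraries (41.1 to 52.9% of the sum over these), and Tnrc6a was so in the 2-mutation libraries, where Tnrc6c supplied 35.1 to 36.4%.

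**Figure D3:**
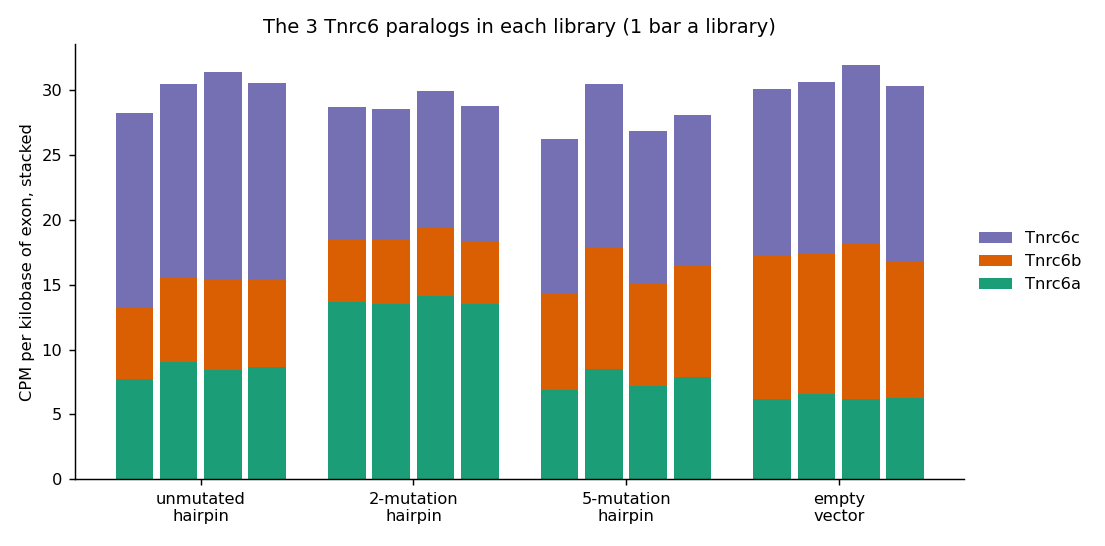
RPKM (CPM per kilobase of exon, vertical axis) of the 3 Tnrc6 genes stacked in each library, 1 bar a library, in groups of 4. The height of the bars runs from 26.2 to 31.9 RPKM over the 16 libraries, while the Tnrc6a segment is widest with the 2-mutation hairpin and the Tnrc6b segment with the empty vector.

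Genes with a pattern like that of each GW182 gene were found by the distance between their 3 log2 fold changes over the empty vector. The search covered 8183 other genes whose log2 CPM averaged 4 or more. Genes without a symbol, or with a predicted, clone or pseudogene name, were left out of it. The nearest genes are given as a description with no test. Nearest to Tnrc6a were Acad11 (distance 0.15), Frmpd3 (0.15) and Dffa (0.17). Nearest to Tnrc6b were Ptar1 (0.06; fold changes −0.77, −1.12 and −0.45), Epb41l2 (0.10) and Flrt3 (0.14). Nearest to Tnrc6c were Usp27x (0.04; fold changes 0.22, −0.34 and −0.16), Pcnx (0.06) and Emc8 (0.09).

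Within CCR4-NOT, the scaffold gene Cnot1 moved little and the deadenylase gene Cnot6 moved more with each hairpin. The deadenylase gene Cnot7 stayed near its empty-vector level except with 2 mutations. Cnot1 (ENSMUSG00000036550.16; chromosome 8, 95719451 to 95807464, minus strand), which holds the complex together, was measured at 199, 203, 195 and 212 CPM with the unmutated hairpin, 241, 232, 240.3 and 239 CPM with 2 mutations, 204, 208, 202 and 213 CPM with 5 mutations. In empty-vector libraries Cnot1 was at 185, 196, 201 and 199.8 CPM. The 2-mutation libraries stood clear of all others, and the 5-mutation libraries lay just above the empty vector. Cnot1 rose with 2 mutations (log2 fold change 0.28 ± 0.04, SE; edgeR adjusted p = 8.22e-07) and did not pass with the unmutated hairpin (0.05 ± 0.04, adjusted p = 0.337) or with 5 mutations (0.08 ± 0.04, adjusted p = 0.0707). With the dependence of levels on exonic length taken into the model it passed in both, at 0.13 (adjusted p = 0.0098) and 0.14 (adjusted p = 0.00288). With the replicate number as a block in the model Cnot1 passed with 5 mutations (0.08, edgeR adjusted p = 0.0444).

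Cnot6 (ENSMUSG00000020362.13; chromosome 11, 49671503 to 49712723, minus strand) encodes a CCR4-type deadenylase and carried the largest difference between hairpins among the 10 genes. It was measured at 39.3, 41.6, 43.7 and 41.3 CPM with the unmutated hairpin, 31.7, 33, 33.5 and 32.6 CPM with 2 mutations, 73.5, 82.8, 78.1 and 79.8 CPM with 5 mutations. In empty-vector libraries Cnot6 was at 47.9, 51, 52.6 and 54.5 CPM. No groups overlapped: the 5-mutation libraries were above the empty vector and the other hairpins below it. Relative to the empty vector the log2 change was −0.31 ± 0.05 (SE; edgeR adjusted p = 1.52e-05) with the unmutated hairpin, −0.66 ± 0.05 (adjusted p = 6.68e-11) with 2 mutations and 0.61 ± 0.05 (adjusted p = 2.53e-10) with 5 mutations. Its paralog Cnot6l averaged 80.7 ± 7.02, 46.7 ± 2.4, 89.3 ± 5.64 and 81.4 ± 4.58 CPM in the same order of groups (SD, n = 4 each), and only its fall with 2 mutations passed (log2 fold change −0.80 ± 0.06, adjusted p = 1.17e-10). Per length, Cnot6 and Cnot6l together came to 14.1 ± 0.89 RPKM with the unmutated hairpin, 9.47 ± 0.342 with 2 mutations, 20.5 ± 0.991 with 5 mutations and 15.7 ± 0.751 with the empty vector.

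Cnot7 (ENSMUSG00000031601.16; chromosome 8, 40492540 to 40515847, minus strand) encodes a CAF1-type deadenylase and fell only with the 2-mutation hairpin. It was measured at 119, 127, 125 and 126 CPM with the unmutated hairpin, 72, 73.5, 76.9 and 70.2 CPM with 2 mutations, 117, 126, 118 and 129 CPM with 5 mutations. In empty-vector libraries Cnot7 was at 115, 124, 122 and 117 CPM. The 2-mutation libraries lay far below the rest, which overlapped each other. The log2 fold change was −0.71 ± 0.04 (SE; edgeR adjusted p = 2.69e-12) with 2 mutations, 0.06 ± 0.04 (95% interval −0.03 to 0.15) with the unmutated hairpin and 0.04 ± 0.04 (−0.05 to 0.12) with 5 mutations. The direct contrasts of the 2-mutation hairpin with the others, given below, passed as well. Its paralog Cnot8 averaged 34.0 ± 1.36, 26.6 ± 0.442, 44.6 ± 2.77 and 45.6 ± 0.58 CPM in the same order, with falls that passed for the unmutated hairpin (−0.42 ± 0.05, adjusted p = 1.55e-07) and for 2 mutations (−0.78 ± 0.05, adjusted p = 1.88e-12). Exons of Cnot7 and Zdhhc2 overlap over 247 nucleotides on opposite strands, and whether reads were assigned by strand was not given in the sources used here. Zdhhc2 went the other way with 2 mutations, at 0.26 ± 0.05 (edgeR adjusted p = 2.61e-05), and fell with 5 mutations (−0.36 ± 0.05, adjusted p = 6.32e-07).

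Pan2 (ENSMUSG00000005682.9; chromosome 10, 128303335 to 128321358, plus strand) was, per length of exon, the least abundant of the 10 in every group. It was measured at 12, 11.9, 12 and 11.6 CPM with the unmutated hairpin, 23.1, 24.5, 24.7 and 23.3 CPM with 2 mutations, 21.6, 22.5, 21.7 and 21.3 CPM with 5 mutations. In empty-vector libraries Pan2 was at 15.1, 15.5, 14.5 and 16.3 CPM. All 4 groups were apart from each other, with the unmutated hairpin lowest and both mutated hairpins above the empty vector. Fold changes on the log2 scale were −0.37 ± 0.05 (SE; edgeR adjusted p = 5.57e-06) with the unmutated hairpin, 0.64 ± 0.05 (adjusted p = 2.28e-10) with 2 mutations and 0.51 ± 0.05 (adjusted p = 1.6e-08) with 5 mutations. Pan3, the partner that brings PAN2 to poly(A)-binding protein and to GW182, did not pass with any hairpin (−0.07, −0.11 and 0.12, each ± 0.05; adjusted p = 0.306, 0.066 and 0.0561). Pan2 therefore made up 25.3 to 28.1%, 41.7 to 42.8%, 35.4 to 37.9% and 29.1 to 31.4% of the summed RPKM of the pair in the same order of groups.

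In the decapping step, the catalytic subunit Dcp2 fell and the helicase Ddx6 stayed close to its level with the empty vector. Dcp2 (ENSMUSG00000024472.9; chromosome 18, 44380502 to 44424969, plus strand) was measured at 32.3, 32, 35.2 and 37.1 CPM with the unmutated hairpin, 64, 64.8, 69.3 and 65 CPM with 2 mutations, 32.5, 33.6, 33.2 and 35.6 CPM with 5 mutations. In empty-vector libraries Dcp2 was at 74.3, 81.3, 88 and 82.7 CPM. The unmutated and 5-mutation libraries covered the same range, and both were below the 2-mutation libraries, which were below the empty vector. Relative to the empty vector Dcp2 was 2.39-fold lower with the unmutated hairpin (log2 fold change −1.26 ± 0.06, SE; edgeR adjusted p = 9.61e-14), 1.24-fold lower with 2 mutations (−0.31 ± 0.05, adjusted p = 2.31e-05) and 2.42-fold lower with 5 mutations (−1.28 ± 0.06, adjusted p = 1.54e-14).

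Ddx6 (ENSMUSG00000032097.10; chromosome 9, 44604892 to 44640731, plus strand) was measured at 213, 230.1, 230.3 and 229.6 CPM with the unmutated hairpin, 243, 232, 262 and 254 CPM with 2 mutations, 232, 238, 237 and 249 CPM with 5 mutations. In empty-vector libraries Ddx6 was at 233, 259, 267 and 269 CPM. The unmutated-hairpin libraries lay just below the lowest empty-vector library, and the other hairpins overlapped the empty vector. Its fall passed with the unmutated hairpin (log2 fold change −0.19 ± 0.05, SE; edgeR adjusted p = 0.00334) and not with 2 mutations (−0.05 ± 0.05, adjusted p = 0.351; 95% interval −0.15 to 0.05) or 5 mutations (−0.11 ± 0.05, adjusted p = 0.0704; −0.21 to −0.01). The 5-mutation difference passed without replicate 1 of the empty vector, the lowest library of its group (−0.15, adjusted p = 0.00816), and with median-of-ratios scaling (−0.13, adjusted p = 0.0436). With protein-coding genes only it passed for both mutated hairpins, at −0.11 with 2 mutations (adjusted p = 0.0368) and −0.12 with 5 mutations (adjusted p = 0.0312). With the replicate number as a block in the model the 5-mutation difference passed too (−0.10, edgeR adjusted p = 0.0216). The group means of Ddx6 stayed within 1.14-fold of each other, against 2.42-fold for Dcp2, the widest of the 10.

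Xrn1 (ENSMUSG00000032410.13; chromosome 9, 95954760 to 96057803, plus strand), the exonuclease at the end of the pathway, was higher with both mutated hairpins. It was measured at 56.3, 62.8, 63.9 and 63.2 CPM with the unmutated hairpin, 88.8, 86.4, 92.7 and 89.9 CPM with 2 mutations, 78.6, 90.6, 77.5 and 84.4 CPM with 5 mutations. In empty-vector libraries Xrn1 was at 66.1, 65.2, 65.5 and 63.3 CPM. The mutated hairpins overlapped each other and lay above the unmutated hairpin and the empty vector, which also overlapped. Log2 fold changes over the empty vector were 0.46 ± 0.05 (SE; edgeR adjusted p = 3.33e-08) with 2 mutations, 0.35 ± 0.05 (adjusted p = 2.82e-06) with 5 mutations and −0.08 ± 0.05 (adjusted p = 0.224; 95% interval −0.18 to 0.03) with the unmutated hairpin. Exons of Xrn1 overlap noncoding genes on the opposite strand that had at most 700 counts in the 16 libraries together.

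Per length, Ddx6 was the most abundant of the 10 in each group, at 28.1 ± 1.08 RPKM with the unmutated hairpin, 30.8 ± 1.65 with 2 mutations, 29.8 ± 0.86 with 5 mutations and 32.0 ± 2.08 with the empty vector (SD, n = 4 each). Pan2 was the least, at 1.40 ± 0.019, 2.82 ± 0.096, 2.57 ± 0.06 and 1.81 ± 0.091 RPKM. With the empty vector the order between them was Cnot7, Tnrc6c, Cnot1, Tnrc6b, Dcp2, Cnot6, Tnrc6a and Xrn1, and of these neighbours Cnot1 and Tnrc6b alone overlapped between libraries. With the unmutated hairpin Tnrc6a stood above Tnrc6b, which overlapped Cnot6. With 2 mutations Cnot7 lay below Cnot1 and Tnrc6a, which overlapped each other, and Tnrc6b, Cnot6 and Xrn1 ran into each other. With 5 mutations Cnot1, Tnrc6c and Cnot6 formed 1 overlapping run and Tnrc6b and Tnrc6a another.

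The hairpins were also set against each other, to describe how these transcripts differed between the groups that carried them. Whether the base changes caused these differences was not tested. Between the unmutated and the 2-mutation hairpin all 10 genes passed, 4 higher and 6 lower with the unmutated hairpin (edgeR, adjusted p below 0.05), where 62.7% of all genes tested were called, 31.2% higher and 31.5% lower. Between the unmutated and the 5-mutation hairpin 2 were higher and 4 lower with the unmutated hairpin, where 55.3% were called, 26.8% higher and 28.5% lower. Between the 2-mutation and the 5-mutation hairpin 4 were higher and 4 lower with 2 mutations, where 65.9% were called, 32.3% higher and 33.6% lower. The median absolute log2 difference of the 10 was 0.55, 0.25 and 0.48, against 0.42, 0.33 and 0.46 over all genes. Libraries did not overlap in 4 higher and 6 lower genes in the first of these contrasts (59.3% of all genes, 29% higher and 30.3% lower), 1 higher and 5 lower in the next (46.7%, 22.9% and 23.8%) and 4 higher and 4 lower in the last (58.9%, 29.9% and 29%).

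For Cnot6, Pan2, Tnrc6c, Xrn1 and Cnot7 the widest difference between hairpins was larger than any difference of that gene from the empty vector. Cnot6 was lower with 2 mutations than with 5 mutations (log2 fold change −1.26 ± 0.05, SE; edgeR adjusted p = 5.35e-16), with means of 32.7 ± 0.781 and 78.5 ± 3.91 CPM (SD, n = 4 each). Pan2 was lower with the unmutated hairpin than with 2 mutations (−1.01 ± 0.05, adjusted p = 1.16e-13) and than with 5 mutations (−0.88 ± 0.05, adjusted p = 2.46e-12). Tnrc6c was higher with the unmutated hairpin than with 2 mutations (0.57 ± 0.04, adjusted p = 2.05e-11) and than with 5 mutations (0.36 ± 0.04, adjusted p = 5.93e-08). Xrn1 was lower with the unmutated hairpin than with 2 mutations (−0.54 ± 0.05, adjusted p = 2.62e-09) and than with 5 mutations (−0.43 ± 0.05, adjusted p = 1.51e-07). Cnot7 was higher with the unmutated hairpin than with 2 mutations (0.77 ± 0.04, adjusted p = 6.58e-13), and lower with 2 than with 5 mutations (−0.74 ± 0.04, adjusted p = 7.75e-13).

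Dcp2 was lower with the unmutated hairpin than with 2 mutations (−0.95 ± 0.06, SE; edgeR adjusted p = 1.22e-12) and did not pass between the unmutated and 5-mutation hairpins (0.02 ± 0.06, adjusted p = 0.81), with a 95% interval of 0.934 to 1.1-fold for that ratio. Cnot7 (0.02 ± 0.04, adjusted p = 0.702; 0.955 to 1.08-fold) and Cnot1 (−0.03 ± 0.04, adjusted p = 0.467; 0.925 to 1.03-fold) did not pass between these hairpins either. Tnrc6a passed between them at 0.15 ± 0.06 (adjusted p = 0.0251) although the libraries overlapped. That call was lost without replicate 2 (adjusted p = 0.0977) or 4 (0.0583) of the unmutated hairpin and without replicate 1 (0.119) or 3 (0.0743) of the 5-mutation hairpin. The call for Ddx6 between the unmutated and 2-mutation hairpins (−0.14 ± 0.05, adjusted p = 0.0188) was lost without replicate 1 of the unmutated hairpin (adjusted p = 0.0758) and without replicate 3 (0.0792) or 4 (0.0529) of the 2-mutation hairpin. Pan2 between the mutated hairpins (0.13 ± 0.05, adjusted p = 0.0228) lost its call without replicate 2 (adjusted p = 0.0552) or 3 (0.0663) of the 2-mutation hairpin and without replicate 4 (0.0567) of the 5-mutation hairpin. Xrn1, which did not pass there (0.11 ± 0.05, adjusted p = 0.0508), passed without replicate 2 of the 2-mutation (adjusted p = 0.0391) or of the 5-mutation hairpin (0.00466). Xrn1 also passed there with the replicate number as a block in the model (0.11, edgeR adjusted p = 0.0361).

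**Figure D4:**
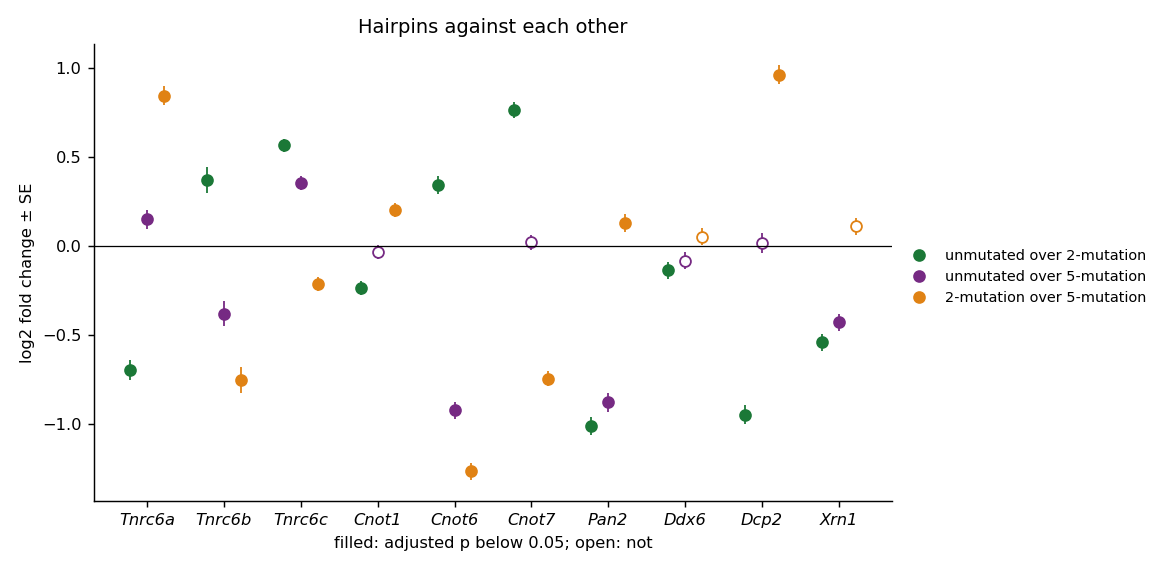
Log2 fold change with its SE for each gene between hairpins, filled where the edgeR adjusted p was below 0.05. Cnot6 and Pan2 show the widest separations, −1.26 for 2 over 5 mutations and −1.01 for the unmutated over the 2-mutation hairpin.

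The rest of the pathway was described from a list of 86 genes in 7 roles, of which 85 were tested. Exosc6 was not tested, as it had no counts in any library, and the reason for this was not tested. With the unmutated hairpin 33 rose, 15 fell and 37 did not pass (56.5% called), with 2 mutations 44 rose, 22 fell and 19 did not pass (77.6%), and with 5 mutations 30 rose, 16 fell and 39 did not pass (54.1%), against 40.3%, 63.3% and 54.9% of all genes. The median log2 fold change of the list was 0.10, 0.16 and 0.08, against 0.01, −0.01 and 0.03 over all genes. The counts describe the list and carry no test.

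Among the partners of GW182 (4 Argonautes, Pabpc1, Pabpc4 and Trim71), 5 rose and 1 fell with the unmutated hairpin, 2 rose and 4 fell with 2 mutations, and 3 rose and 4 fell with 5 mutations. The shares of all genes called were 40.3%, 63.3% and 54.9%. Ago2, the Argonaute that can cut its target, averaged 516 ± 30.5 CPM with the unmutated hairpin, 85.4 ± 4.99 with 2 mutations, 386 ± 8.19 with 5 mutations and 354 ± 21.2 with the empty vector (SD, n = 4 each). Its log2 fold change was 0.55 ± 0.05 (SE; edgeR adjusted p = 1.25e-08) with the unmutated hairpin, −2.05 ± 0.05 (adjusted p = 1.19e-18) with 2 mutations and 0.13 ± 0.05 (adjusted p = 0.0373) with 5 mutations. Ago1 rose with the unmutated hairpin (0.41 ± 0.04, adjusted p = 1.18e-08), did not pass with 2 mutations (−0.04 ± 0.04, adjusted p = 0.419) and fell with 5 mutations (−0.10 ± 0.04, adjusted p = 0.031). Ago3 fell with each hairpin (−0.18, −1.02 and −0.60), each ± 0.07 (adjusted p = 0.0415, 5.72e-11 and 2.58e-07 for the unmutated, 2-mutation and 5-mutation hairpins). Ago4 rose with the unmutated hairpin (0.22 ± 0.07, adjusted p = 0.0154), fell with 2 mutations (−0.34 ± 0.07, adjusted p = 0.000261) and rose with 5 mutations (0.78 ± 0.07, adjusted p = 2.64e-09). Trim71, a target of let-7 in embryonic cells, likewise rose with the unmutated hairpin (0.86 ± 0.1, adjusted p = 3.63e-07), fell with 2 mutations (−0.44 ± 0.1, adjusted p = 0.000842) and rose with 5 mutations (1.04 ± 0.1, adjusted p = 6.61e-09).

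Of 13 other CCR4-NOT subunits and cofactors, 6 rose and 1 fell with the unmutated hairpin, 7 rose and 3 fell with 2 mutations, and 6 rose and none fell with 5 mutations. For all genes the shares called were 40.3%, 63.3% and 54.9%, and these apply to the deadenylase counts below as well. Cnot9, a subunit that binds GW182, rose with each hairpin (0.34, 0.27 and 0.24, each ± 0.04 SE; edgeR adjusted p at most 1.95e-05). Tob2, which recruits the complex to messenger RNAs, rose with each hairpin (0.24, 0.50 and 0.86, each ± 0.05; adjusted p = 0.00109, 2.54e-08 and 4.77e-12). Tob1, of the same family, rose with 2 mutations (0.24 ± 0.05, adjusted p = 0.000173) and 5 mutations (0.36 ± 0.05, adjusted p = 1.27e-06) and did not pass with the unmutated hairpin (0.07 ± 0.05, adjusted p = 0.254). Under other deadenylases the list held 6 genes: Parn, Noct, Pde12, Angel1, Angel2 and Pan3, which is the partner of PAN2. The heading is only that of the list, and whether each of these 6 shortens poly(A) tails was not examined. Among these 1 rose and 2 fell with the unmutated hairpin and 5 rose with 2 mutations. With 5 mutations 3 rose and 1 fell. Angel1, a relative of the CCR4-type enzymes, averaged 9.44 ± 0.339, 32.6 ± 1.51, 17.6 ± 0.882 and 9.52 ± 0.539 CPM in the same order of groups, and its rise passed with 2 mutations (1.78 ± 0.06, adjusted p = 7.72e-17) and 5 mutations (0.89 ± 0.06, adjusted p = 2.4e-11). Angel2 fell with the unmutated hairpin (−0.53 ± 0.04, adjusted p = 1.5e-09) and rose with 2 mutations (0.21 ± 0.04, adjusted p = 0.000123) and 5 mutations (0.25 ± 0.04, adjusted p = 2.43e-05). Parn fell with the unmutated hairpin (−0.23 ± 0.05, adjusted p = 0.000554), rose with 2 mutations (0.23 ± 0.05, adjusted p = 0.000245) and did not pass with 5 mutations (−0.03 ± 0.05, adjusted p = 0.647). Pde12 did not pass with the unmutated hairpin (0.08 ± 0.06, adjusted p = 0.251) and rose with 2 mutations (0.44 ± 0.06, adjusted p = 3.82e-07) and 5 mutations (0.34 ± 0.06, adjusted p = 1.48e-05). Noct rose with the unmutated hairpin (0.14 ± 0.04, adjusted p = 0.00762) and 2 mutations (0.25 ± 0.04, adjusted p = 6.9e-06) and fell with 5 mutations (−0.56 ± 0.04, adjusted p = 6.06e-11).

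Around Dcp2, 6 of 19 decapping partners and activators rose and 2 fell with the unmutated hairpin, 11 rose and 6 fell with 2 mutations, and 4 rose and 2 fell with 5 mutations. These counts stand beside 40.3%, 63.3% and 54.9% of all genes called. Patl1, which links DDX6 to decapping, rose with the unmutated hairpin (0.41 ± 0.04, SE; edgeR adjusted p = 1.09e-07) and 2 mutations (0.39 ± 0.04, adjusted p = 5.23e-08) and fell with 5 mutations (−0.41 ± 0.04, adjusted p = 5.03e-08). Dcp1a, the cofactor of DCP2, rose with the unmutated hairpin (0.28 ± 0.05, adjusted p = 0.000163) and 2 mutations (0.14 ± 0.05, adjusted p = 0.0252) and did not pass with 5 mutations (−0.07 ± 0.05, adjusted p = 0.266). Lsm14b, a DDX6-binding protein, fell with each hairpin (−0.17, −0.94 and −0.58, each ± 0.04; adjusted p = 0.0023, 2.54e-14 and 1.5e-10). Lsm3, of the ring that binds shortened tails, rose with each (0.27, 0.87 and 0.49, each ± 0.07; adjusted p = 0.00456, 3.85e-10 and 3.74e-06). Pnrc2 did not pass with the unmutated hairpin (0.11 ± 0.07, adjusted p = 0.191), fell with 2 mutations (−0.46 ± 0.07, adjusted p = 3.27e-06) and rose with 5 mutations (0.70 ± 0.07, adjusted p = 5.44e-09).

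Of 16 tested exosome and other exonuclease genes, 6 rose and 1 fell, 11 rose and 2 fell, and 10 rose and 1 fell in the same order of hairpins. Across all genes 40.3%, 63.3% and 54.9% were called. Ttc37, of the complex that feeds the cytoplasmic exosome, fell with the unmutated hairpin (−0.46 ± 0.05, adjusted p = 7.17e-08) and rose with 2 mutations (0.64 ± 0.05, adjusted p = 4.59e-11) and 5 mutations (0.49 ± 0.05, adjusted p = 6.8e-09). Dis3, an exosome nuclease, rose with each hairpin (0.25, 0.12 and 0.40, each ± 0.05; adjusted p = 0.000174, 0.0356 and 1.64e-07), and so did Exosc9, a subunit of the exosome ring (0.18, 0.60 and 0.18, each ± 0.05; adjusted p = 0.00558, 3.02e-10 and 0.00376).

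Of 10 genes of nonsense-mediated decay, 5 rose and 4 fell with the unmutated hairpin, 4 rose and 1 fell with 2 mutations, and 1 rose and 2 fell with 5 mutations. Called shares over all genes were 40.3%, 63.3% and 54.9%, for these counts and for those of the recruiters below. Upf2, a core factor of that pathway, fell with each hairpin (−0.54, −0.67 and −0.81, each ± 0.09 SE; edgeR adjusted p = 9.16e-05, 2.65e-06 and 3.3e-07). Smg8 rose with the unmutated hairpin (adjusted p = 2.09e-05) and with 2 mutations (adjusted p = 7.4e-06), by 0.31 ± 0.05 in each, and did not pass with 5 mutations (0.09 ± 0.05, adjusted p = 0.115). Of 14 sequence-specific recruiters of decay, 4 rose and 4 fell, 4 rose and 6 fell, and 3 rose and 6 fell in the same order of hairpins. Ythdf3, a reader of methylated adenosine, averaged 76.5 ± 4.2 CPM with the unmutated hairpin, 40 ± 2.39 with 2 mutations, 64.5 ± 3.61 with 5 mutations and 106 ± 3.97 with the empty vector (SD, n = 4 each). Its falls passed in each comparison (−0.48 ± 0.05, −1.41 ± 0.05 and −0.72 ± 0.05; edgeR adjusted p at most 1.19e-07). Samd4 fell with each hairpin (−0.39 ± 0.08, −0.34 ± 0.08 and −1.14 ± 0.08; adjusted p = 0.000359, 0.000526 and 6.2e-11). Samd4b rose with the unmutated hairpin (0.24 ± 0.06, adjusted p = 0.00234), fell with 2 mutations (−0.89 ± 0.06, adjusted p = 1.62e-11) and rose with 5 mutations (0.64 ± 0.06, adjusted p = 4.27e-09). Nanos1 rose with the unmutated hairpin (0.21 ± 0.05, adjusted p = 0.00201) and fell with 2 mutations (−0.42 ± 0.05, adjusted p = 2.69e-07) and 5 mutations (−0.75 ± 0.05, adjusted p = 4.98e-11).

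**Figure D5:**
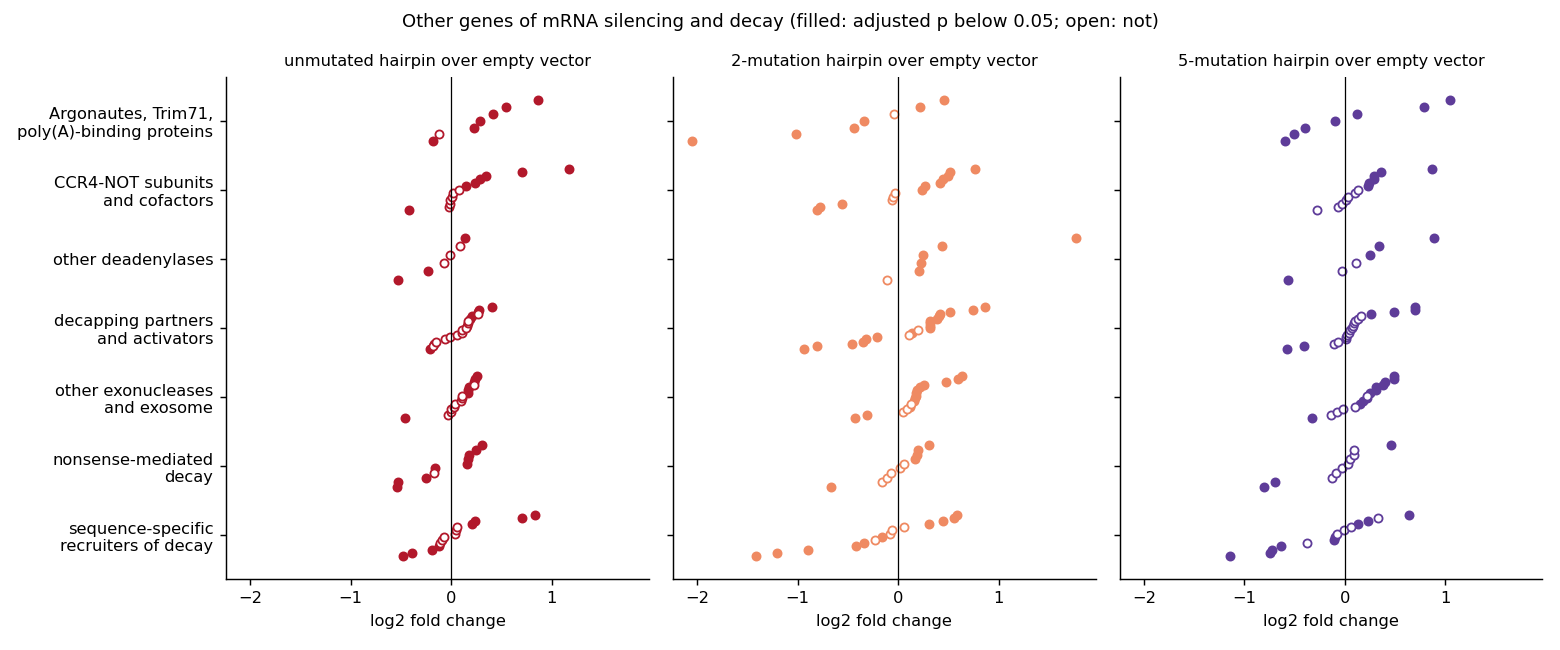
Log2 fold change over the empty vector (horizontal axes) of the 85 other genes tested, 1 panel a hairpin and 1 row a role, filled where the edgeR adjusted p was below 0.05. Most points lie within 1 of 0, and the widest are Ago2 (−2.05) and Angel1 (1.78) with 2 mutations.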

How the data were processed

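Total RNA was measured in 16 libraries, which per the labels' protocols were depleted of ribosomal RNA and made with a directional dUTP kit. The deposited file holds raw counts, which per the submitters' processing notes the authors made with featureCounts on STAR 2.7.2b alignments to GRCm38.p6, after bcl2fastq 2.20.0.422, Trim Galore 0.6.0 and cutadapt 1.15. The annotation release, the strand setting and the treatment of multimapping reads were not given in the sources used here. Symbols, positions and exonic lengths came from GENCODE vM21, to which 55154 of 55335 IDs matched without version. Total counts ran from 33795369 to 49824569, and no replicate was a copy of another (chi-square over degrees of freedom from 3.25 to 21.86 between replicates). Genes were kept with filterByExpr, scaled by TMM, and tested by robust quasi-likelihood with edgeR 4.0.16 in R 4.3.3, with 1 coefficient a group, all libraries and 2-sided contrasts. P-values were adjusted by Benjamini-Hochberg over the 19479 genes of each contrast. The fit was tested on simulated data with few changed genes and a single contrast. That does not test it where as many genes differ as here. Alternatives were median-of-ratios scaling, no filter, DESeq2 1.42.0, a fit of only the groups compared, the replicate number as a block, protein-coding genes only, a length trend in the offsets and leaving out each library. The members, gene lists and naming rules (all members, up to 2 genes a role with the smallest p in each contrast with the empty vector, paralogs and partners of members, and Rtn4) were chosen with earlier results of these data known. The values of 1 gene that these rules name are not reported here. The microRNA families were chosen after the files were read. Annotation and figures used Python 3.11.15, pandas 2.3.3, numpy 2.4.6 and matplotlib 3.10.9.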

Additional observations from a re-analysis of the deposited data

Results flagged for a closer look

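Of 40 sets of 4 libraries examined (10 genes in 4 groups), 5 held a library whose gap to its nearest neighbour exceeded Dixon's 95% critical share of the range, and chance gives about 1 in 20. All 5 were in the unmutated-hairpin group. Replicate 1 was the low library in 3 of them, with Cnot7 at 118.6 CPM (the others at 125 to 127), Ddx6 at 212.8 CPM (229.6 to 230.3) and Xrn1 at 56.31 CPM (62.8 to 63.9). Tnrc6c was high in replicate 3, at 205.5 CPM (192 to 194), and Pan2 was low in replicate 4, at 11.63 CPM (11.9 to 12). These gaps were small against the differences between groups for Tnrc6c and Pan2, and the call that rested on replicate 1 was that of Ddx6 between the unmutated and 2-mutation hairpins. The cause was not tested.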

How the results depend on the processing

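The 18 counts of calls (members, other pathway genes and all genes in 6 contrasts) stayed within 1.5 times of their values under all 7 alternatives and without any library. Under the 7 alternatives the calls of members ranged over 7 to 8 with the unmutated hairpin, 9 to 10 with 2 mutations and 7 to 9 with 5 mutations against the empty vector. Of 420 fold changes of members under these alternatives, 402 kept their direction and their side of the threshold, 4 lost a call, 13 gained one and 1 changed sign. With the length trend, Xrn1 between the unmutated hairpin and the empty vector was at 0.003 in place of −0.08 (not called in either), Cnot1 passed at 0.128 (unmutated hairpin) and 0.144 (5 mutations), Ddx6 passed between the unmutated and 5-mutation hairpins at −0.098, and Xrn1 between the mutated hairpins at 0.232. With protein-coding genes only, Ddx6 passed with 2 mutations (−0.113) and 5 mutations (−0.119) and lost its call between the unmutated and 2-mutation hairpins (−0.087), and Pan2 lost its call between the mutated hairpins (0.085), as it did with no filter (0.126). Median-of-ratios scaling called Ddx6 with 5 mutations (−0.126) and Xrn1 between the mutated hairpins (0.131), and so did DESeq2 (−0.128 and 0.135). In the fit of only 2 groups, Tnrc6a lost its call between the unmutated and 5-mutation hairpins (0.158). The cause of these shifts was not tested.

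Same-numbered libraries correlated over 0.1 in 12 of 24 pairs (−0.02 to 0.27, median 0.099). Differently numbered libraries did so in 4 of 72 pairs (−0.349 to 0.296, median −0.032). In 41 of 48 cases a library correlated best with its own number in another group. Libraries of the same number were thus more alike, and the reason for this was not tested. The main fit did not take the numbers as pairs, so the fit with the replicate block is given beside it. With the replicate block the calls of members were 7, 9 and 9 against the empty vector. Cnot1 (0.082) and Ddx6 (−0.103) passed with 5 mutations and Xrn1 (0.112) between the mutated hairpins, and no call of a member was lost.

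Without 1 library, 464 of 480 fold changes of members stayed the same in direction and call. Those that did not ranged from −0.152 to −0.084 (Ddx6, 5 mutations against the empty vector), −0.167 to −0.107 (Ddx6, unmutated against 2 mutations), 0.104 to 0.207 (Tnrc6a, unmutated against 5 mutations), −0.001 to 0.045 (Cnot7, same contrast), −0.023 to 0.051 (Dcp2, same contrast), 0.117 to 0.149 (Pan2, between the mutated hairpins) and 0.081 to 0.157 (Xrn1, same contrast). Fold changes under about 0.15 on the log2 scale thus sit near the limit of 4 libraries a group. No scaling moved the median of all genes by over 0.1.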
